A study of Homo sapiens with 2 samples.

Results

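The genes described here encode 8 proteins that hepatocytes secrete into the plasma. They are ALB, TTR, SERPINA1, TF, AHSG and the fibrinogen chain genes FGA, FGB and FGG. RNA came from Huh-7, an established human hepatocellular carcinoma line that retains much of the secretory programme of hepatocytes. One condition received vehicle (0.1% DMSO, the control) and the other 0.1 mM BS008, an amiloride derivative, both for 24 h, and each is represented by 1 library. Reads were counted on exons listed by chromosome, start, end and strand of hg19, without gene names. The members were the exon rows that lie on the gene's strand inside a fixed window around each gene. In all, 72 of 239322 rows were found, between 4 (TTR) and 17 (TF) per gene, and all 72 had at least 10 counts in either library. Of these rows, 56 had the length of an exon annotated for the gene of their window in GENCODE release 29. The other 16 rows had no such length. In SERPINA1 and FGG, 50% and 71.4% of the internal exons of the best matching transcript had a row of the same length in order, and in the other members at least 80%. No row overlapped another row on either strand.

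Hepatocytes make most of the protein mass of plasma. Albumin sets the oncotic pressure and carries fatty acids and drugs, transthyretin carries thyroxine and retinol-binding protein, and transferrin carries iron. SERPINA1 encodes alpha-1-antitrypsin, the inhibitor of neutrophil elastase, and AHSG encodes fetuin-A, which keeps calcium phosphate in solution. The alpha, beta and gamma chains of fibrinogen are made from neighbouring genes, assemble in equal numbers and form the fibrin clot. Several of these genes respond to inflammation. Albumin and transferrin are known as negative acute phase proteins, and alpha-1-antitrypsin and fibrinogen as positive ones.

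The libraries held 55476654 counts (control) and 53578432 counts (BS008). The hepatocyte markers APOA1 and APOB were present, with 28997 and 478822 reads in the control library and 21372 and 213405 after BS008. AFP, which marks fetal liver and hepatoma, had 133300 and 88052. The leukocyte marker PTPRC had 0 reads in both libraries, which allows up to 3 counts, and the fibroblast marker COL1A1 had 14 and 6. The epithelial marker EPCAM had 5235 and 4891. Mitochondrial rows took 11.8% of the control counts and 13.1% of the BS008 counts. Leaving out mitochondrial rows shifted the log2 ratio of the library totals (control to BS008) by 0.02. By either scaling, 3 of the 8 genes were higher after BS008 and 5 lower. The part of these differences in the results below was not tested further. With 1 library for each condition there is no test of the differences below. The 95% exact intervals (Clopper-Pearson) cover the counting of reads only, and reads without molecular identifiers are not independent molecules. In such bulk RNA, fewer cells that express a gene and less RNA per cell cannot be told apart.

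Together the 8 genes took 1.73% of all counted reads in the control library (1.725 to 1.732%) and 1.83% (1.826 to 1.833%) after BS008. The differences between the libraries were small and went both ways. ALB and SERPINA1 were higher after BS008, TF and TTR were lower, and AHSG and the fibrinogen genes lay close to their control values. No gene differed by 1.5-fold, although the counting interval of the TTR ratio (0.620 to 0.805) includes such a decrease. Of the 72 rows, 34 were higher after BS008 and 38 lower, where 53.2% of all 131330 rows with at least 10 counts were lower. None reached 2-fold (0 rows in either direction), against 3.73% of all rows for a higher count and 3.79% for a lower one. Rows of the same gene tended to go together, as with the 17 rows of TF, which were all lower. The 72 rows are therefore not independent values. The 8 genes have more reads than most, and 70 of the 72 rows had at least 100 counts. Of all 68432 such rows 56.6% were lower, and a 2-fold difference was seen in 5.34% (higher) and 6.19% (lower). The median log2 ratio was -0.05 over the 72 rows and -0.04 over the 131330 rows (-0.10 over the 68432). These ratios are on CPM, counts scaled to the library total, plus a pseudocount of 0.5.

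The level per length (RPKM, reads scaled to the summed row length and to the library total) spanned a wide range. In control cells it was 2164 for ALB, 1477 for SERPINA1, 1040 for AHSG and 918 for TF. The fibrinogen genes followed at 139 (FGG), 98.3 (FGB) and 91.6 (FGA), and TTR was lowest at 11.1. The same order held after BS008, with 2521, 1734, 965, 683, 135, 105, 87.6 and 7.84. The counting intervals of neighbours in this order did not overlap. The order depended on how a gene was summarised, and some rows are longer than the annotated exons. With the median RPKM of the rows, AHSG (1860) came before SERPINA1 (1594) in the control library, and FGA (140.3) was level with FGB (139.6).

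**Figure D1:**
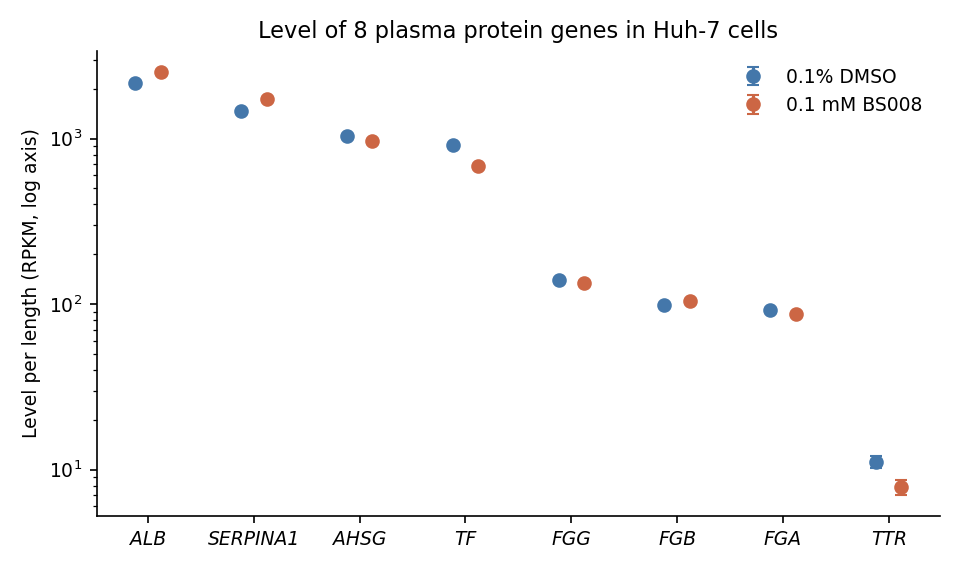
Level per length of the 8 genes, as RPKM on a log axis, in the control (0.1% DMSO) and BS008 (0.1 mM) libraries. Points are single libraries and bars the 95% exact counting interval. ALB and SERPINA1 lie higher after BS008 and TF and TTR lower, and the order of the genes is the same in both.

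ALB lies on the plus strand of chromosome 4, with rows between 74269972 and 74287127. Its 15 rows held 274038 reads in the control library and 308359 after BS008, which is 4940 and 5755 CPM. The BS008 library was thus 1.17 times the control (1.16 to 1.17), a log2 ratio of 0.22. Of the rows, 14 were higher and 1 was lower. The largest log2 ratio was at row 6 from the 5′ end (74276029 to 74276126), with 7548 and 10465 reads and a log2 ratio of 0.52. The exception was row 4 (74274311 to 74274522), which held the most reads of the gene, 48098 in the control library and 44795 after BS008 (log2 ratio -0.05). Its share of the gene's reads was 17.6% (17.4 to 17.7%) in the control library and 14.5% (14.4 to 14.7%) after BS008. This difference of -3.02 percentage points was the largest in share at any of the 72 rows. No row reached the 5 percentage points set for naming. Reads along ALB were uneven in both libraries, with rows 4 and 5 and rows 10 to 13 high and the first and last rows low (88.5 and 162 RPKM in the control library against 6201 at row 10).

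SERPINA1 lies on the minus strand of chromosome 14, with rows between 94843085 and 94857029. It held the most reads of the 8 genes, 348875 in the control library and 395485 after BS008, or 1.17 times the control (1.17 to 1.18; log2 ratio 0.23). All 5 rows with at least 100 counts were higher, with log2 ratios from 0.15 to 0.29. Row 3 (94848929 to 94849578) had the most reads and the highest log2 ratio, with 105933 in the control library and 125251 after BS008. Its share was 30.4% and 31.7%. Row 5 had the lowest ratio among these, with 64538 and 69339 reads. SERPINA1 is known to start at different first exons, the most upstream of which is used by monocytes and macrophages. The most upstream row (94856757 to 94857029) was the only one lower after BS008, with 61 reads in the control library and 35 after BS008, which is 0.0175% (0.0134 to 0.0225%) and 0.00885% (0.00616 to 0.0123%) of the gene's reads. The next row had 21414 and 24145 reads, so that almost all SERPINA1 reads lay downstream of the first row in both libraries.

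TF lies on the plus strand of chromosome 3, with rows between 133464800 and 133497635. It had 156239 reads in the control library and 112349 after BS008, which is 0.745 times the control (0.739 to 0.750; log2 ratio -0.43). All 17 rows were lower. Row 3 (133472439 to 133472547) had the lowest log2 ratio, with 5326 and 3345 reads and a log2 ratio of -0.62. It was the only one of the 72 rows at least 1.5-fold lower, against 13.9% of all rows with at least 10 counts and 19.5% of those with at least 100. No row was 1.5-fold higher (0 of 72), against 11.5% and 13.5%. The smallest difference was at row 11 (133483719 to 133483751), the shortest row with 33 bp, with 5957 and 5287 reads and a log2 ratio of -0.12. Row 15, with the most reads, had 19513 and 14368 (log2 ratio -0.39). The log2 ratios ran from -0.62 to -0.53 over the first 5 rows and from -0.55 to -0.12 over the last 8. The reads per length on the 3′ side of the midpoint of the exonic sequence were 3.14 times those on the 5′ side in the control library and 3.51 times after BS008.

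TTR lies on the plus strand of chromosome 18, with rows between 29171730 and 29178984. It had few reads, 570 in the control library and 389 after BS008 (10.3 and 7.26 CPM). The ratio was 0.707 (0.620 to 0.805) and the log2 ratio -0.47, and all 4 rows were lower. The interval of TTR therefore includes the ratio of TF. Row 4, with the most reads, had 214 in the control library and 147 after BS008 (log2 ratio -0.43). Row 3 had 209 and 139 (-0.46) and row 2 had 124 and 86 (-0.38), while row 1 had 23 and 17. ALB exceeded TTR per length by 195 times in the control library and 322 times after BS008. RBP4, which encodes the retinol carrier that transthyretin binds in plasma and was singled out after its values were seen, exceeded TTR by 106 times and 154 times per length. It had 60479 reads in the control library and 60073 after BS008 (log2 ratio 0.04).

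AHSG lies on the plus strand of chromosome 3, with rows between 186330850 and 186339105. Its reads numbered 127624 in the control library and 114410 after BS008, which is 0.928 times the control (0.921 to 0.936; log2 ratio -0.11). Row 1 (186330850 to 186331143) had 14158 and 14668 reads with a log2 ratio of 0.10. Row 5 (186336325 to 186336426) had 15841 and 12726 with a log2 ratio of -0.27. Row 7, with the most reads, had 42675 and 37777 (-0.13). The rows towards the 3′ end thus had the lower ratios, where in TF it was the rows towards the 5′ end. The reads per length on the 3′ side of AHSG were 1.61 times those on the 5′ side in the control library and 1.44 times after BS008. In ALB this ratio was 1.47 in the control library and 1.63 after BS008. Without the first and last rows it was 2.31 and 2.55 in TF. Of the 8 genes, 5 had a higher ratio after BS008, and 4 without the first and last rows.

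**Figure D2:**
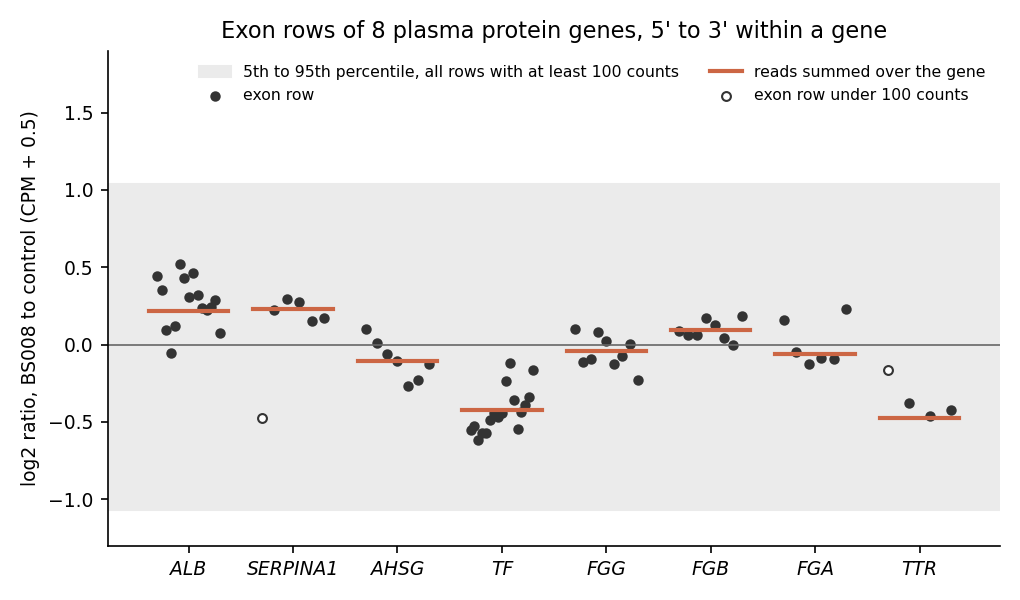
Log2 ratio of BS008 to control (CPM plus 0.5) for each of the 72 exon rows, ordered from 5′ to 3′ within each gene, with the ratio of the summed reads as a line. The grey band is the 5th to 95th percentile (-1.07 to 1.04) of all 68432 rows with at least 100 counts. All 72 rows lie inside it, with TF and TTR below 0 throughout and ALB and SERPINA1 above 0 at all but 1 row each.

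The fibrinogen genes lie side by side on chromosome 4 and lay within 0.1 of 0 on the log2 scale by summed counts. With upper quartile scaling FGB was at 0.16 and AHSG at -0.04. FGB (plus strand, 155484132 to 155492236) had 14024 reads in the control library and 14460 after BS008, a ratio of 1.07 (1.04 to 1.09; log2 ratio 0.09). FGA (minus strand, 155504280 to 155511897) had 19894 and 18383, a ratio of 0.957 (0.938 to 0.976; log2 ratio -0.06). FGG (minus strand, 155525287 to 155533902) had 17621 and 16513, a ratio of 0.970 (0.9499 to 0.991; log2 ratio -0.04). The intervals of FGA and FGG overlapped, and that of FGB lay above both. The side of 0 on which FGA and FGG lie depended on the scaling, since the log2 ratios were 0.01 and 0.03 when libraries were scaled to the upper quartile. Per length, FGA stood at 0.931 and FGG at 1.42 times FGB in the control library, and at 0.835 and 1.29 times FGB after BS008.

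In each of the fibrinogen genes the log2 ratio furthest from 0 was at the last row. The FGA transcript is known in a common form and in a longer form with an additional last exon, which gives the extended alpha chain. Row 5 of FGA (155506429 to 155508070) had the most reads, 13407 in the control library and 12115 after BS008 (log2 ratio -0.10). Row 6, the most 3′ row (155504280 to 155505985), had 1546 and 1759 reads and the highest log2 ratio of the gene (0.23). The lowest was at row 3, with 1889 and 1669 reads (-0.13). The share of row 6 in the reads of FGA was 7.77% (7.40 to 8.15%) in the control library and 9.57% (9.15 to 10.003%) after BS008. This difference of 1.80 percentage points was the largest gain in share among the 72 rows.

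The gamma chain is also known in a common form, which uses the last exon, and in a form that reads through the intron before it. Row 9 of FGG (155525287 to 155525506), the most 3′ row, had 1629 reads in the control library and 1337 after BS008 (log2 ratio -0.23). Its share was 9.24% (8.82 to 9.68%) and 8.10% (7.68 to 8.52%). Row 8 (155525729 to 155526218), with the most reads, had 4404 and 4258 (log2 ratio 0.00), a share of 25.0% (24.4 to 25.6%) and 25.8% (25.1 to 26.5%). The highest log2 ratio among the FGG rows with at least 100 counts was 0.10, at row 1, with 362 and 376 reads. In FGB, row 7 had the lowest log2 ratio (0.00, 2707 and 2613 reads) and row 8 the highest (0.18, 2547 and 2796 reads). Exon counts hold no junctions, so these shares are not counts of isoforms.

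**Figure D3:**
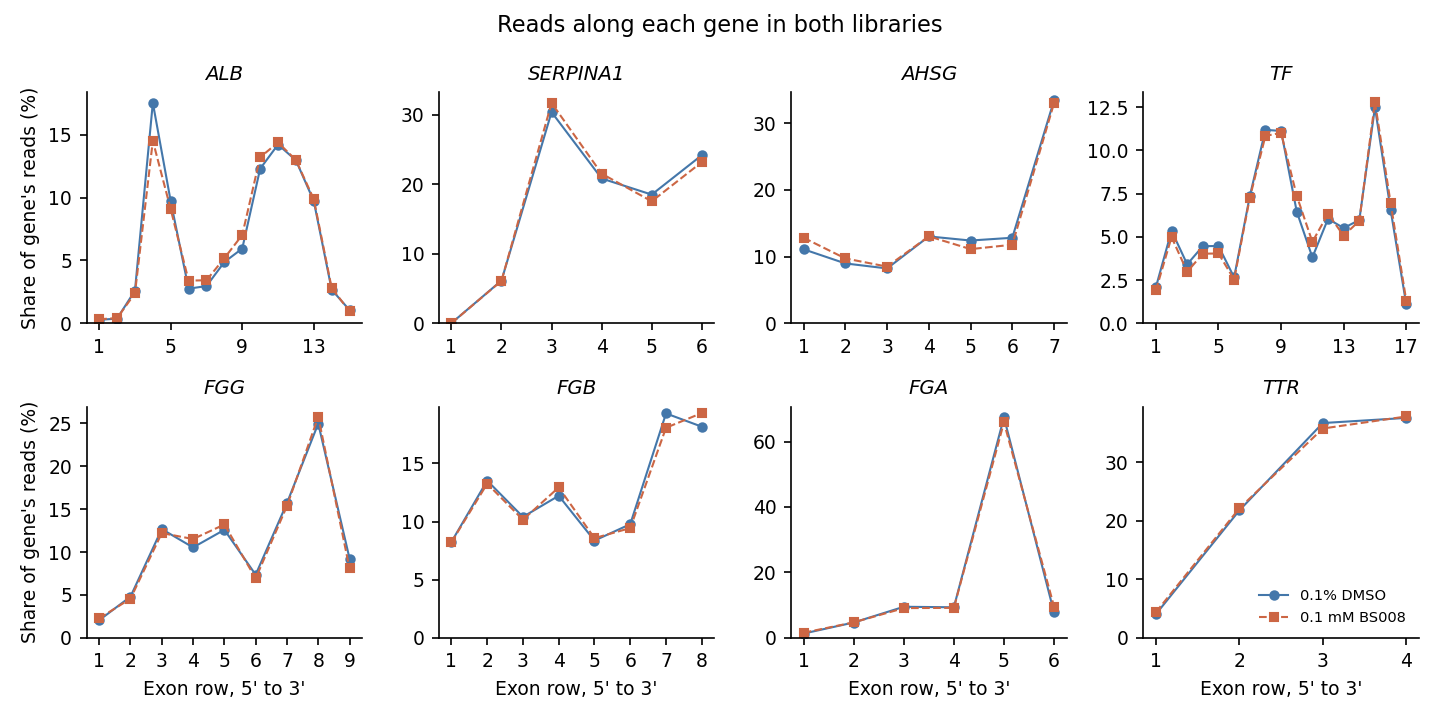
Share of each gene's reads on each exon row, from 5′ to 3′, in the control and BS008 libraries (percent, 1 library each). The profiles nearly coincide. The largest gaps are row 4 of ALB (17.6% and 14.5%) and row 6 of FGA (7.77% and 9.57%).

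The sequence upstream of the start is shown for ALB and for the fibrinogen genes, since FGA, FGB and FGG differed little between the libraries while ALB was higher after BS008. The sequences are RefSeq promoters on GRCh38.p14, a build other than that of the exon rows, and show the 200 bases before the annotated start, 5′ to 3′. Such a promoter was at hand for 7 of the 8 genes, with 1 start for each. For SERPINA1 and TF this start may not be that of the counted transcripts, and their promoters are not shown. Capitals mark matches on either strand to the short HNF1 site GTTAAT or the C/EBP site TTGCNNAA, binding motifs of liver transcription factors. The HNF4 site CAAAGTCCA, another such motif, was also searched and had no match in the sequences shown.
ALB, chr4:73404087-73404286 (+): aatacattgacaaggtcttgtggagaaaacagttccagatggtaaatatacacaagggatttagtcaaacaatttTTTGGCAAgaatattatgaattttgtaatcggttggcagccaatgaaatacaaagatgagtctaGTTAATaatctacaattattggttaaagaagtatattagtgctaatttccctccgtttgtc
FGB, chr4:154562780-154562979 (+): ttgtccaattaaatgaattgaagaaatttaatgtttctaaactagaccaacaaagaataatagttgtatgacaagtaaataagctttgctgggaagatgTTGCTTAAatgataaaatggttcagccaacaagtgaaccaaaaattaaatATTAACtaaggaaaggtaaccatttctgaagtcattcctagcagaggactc
FGA, chr4:154590743-154590942 (-): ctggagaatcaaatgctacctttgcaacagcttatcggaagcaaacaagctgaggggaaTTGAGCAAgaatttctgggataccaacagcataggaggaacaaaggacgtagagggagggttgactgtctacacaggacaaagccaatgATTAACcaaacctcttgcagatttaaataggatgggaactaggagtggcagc
FGG, chr4:154612657-154612856 (-): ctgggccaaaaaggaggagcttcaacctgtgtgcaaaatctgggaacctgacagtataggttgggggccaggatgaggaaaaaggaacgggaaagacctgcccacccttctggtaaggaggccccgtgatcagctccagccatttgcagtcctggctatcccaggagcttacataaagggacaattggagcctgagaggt
The short HNF1 site was found in the 250 bases before the start of ALB, FGB and FGA, that is in 3 of the 7 genes, against 6.23% of all 35116 promoters. In these it lay at 61 to 56, 51 to 46 and 52 to 47 bases before the start. The C/EBP letters were found in 4 of 7 (ALB, FGB, FGA and AHSG), against 9.05% of all promoters, and the HNF4 letters in AHSG alone, against 0.325%. FGG held none of these. The TATA box letters TATAAA were found in 0 of 7, against 10.7% of all promoters. The 7 include the windows at hand for TF and SERPINA1, which held no match and may not be promoters of the counted transcripts. These matches are a description of the sequence. Binding was not measured, and a relation between the letters and the ratios was not tested.

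Further plasma protein genes were taken from a list of 25, of which 24 had exon rows whose lengths matched an annotated transcript. Among them 7 were higher after BS008 and 17 lower, with a median log2 ratio of -0.26, against -0.05 for the 8 genes. At least 1.5-fold lower were 8 of the 24 and at least 1.5-fold higher were 2. The shares over all features are known for exon rows only, of which 53.2% were lower, 13.9% at least 1.5-fold lower and 11.5% at least 1.5-fold higher (at least 10 counts), so the counts of genes cannot be read against them directly. The lowest log2 ratio among genes with at least 100 reads was that of HP, which encodes the haemoglobin-binding haptoglobin, with 2030 reads in the control library and 731 after BS008 (log2 ratio -1.39). AFM had 106 and 34 (-1.09) and KNG1, which encodes kininogen, had 1245 and 560 (-1.07). This order rests on the pseudocount, which draws low counts towards 0, since by reads alone AFM stood at 0.332 times the control and HP at 0.373 times. The highest was FETUB, with 437 and 1025 reads (1.23), followed by ORM1 with 20701 and 27258 (0.45) and ORM2 with 13721 and 17312 (0.38). ORM1 and ORM2 are near-identical, so that reads may have been split between them.

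The neighbours of ALB and AHSG on their chromosomes stood at other ratios. AFP, the fetal relative of albumin that follows ALB on chromosome 4, was 0.684 times the control (0.678 to 0.690). AFM, the next relative, was 0.332 times the control (0.219 to 0.493). The level of ALB per length was 1.84 times that of AFP in the control library and 3.13 times after BS008. FETUB, the paralog next to AHSG on chromosome 3, was 2.43 times the control (2.17 to 2.72), while AHSG was 0.928 times. AHSG exceeded FETUB per length by 249 times in the control library and 95.3 times after BS008. HRG, further along, had 3 and 26 reads, a ratio of 8.97 with a counting interval from 2.75 to 46.3, and its log2 ratio with the pseudocount was 0.83. KNG1, which follows HRG, was 0.466 times the control (0.421 to 0.515).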

How the data were processed

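RNA of Huh-7 cells was sequenced with the Illumina mRNA-seq kit, 1 library for each condition, from 1 µg of total RNA. The authors deposited raw counts of reads per exon. A second column, deposited by the authors, holds RPKM (the count scaled to exon length and to the library's summed counts), and recomputing them returned the deposited values to within 4.72e-06. The genome build is hg19 per the submitters' processing notes. The aligner, counter and annotation are not given in the sources used here. The kit does not mark strand. The members and gene lists were chosen with earlier results of these data known.

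Reads were summed over the rows of each gene and scaled to CPM by the summed exon counts (55476654 and 53578432). Log2 ratios of BS008 to control used a pseudocount of 0.5 CPM, equal to 27.7 and 26.8 reads. The intervals of ratios are exact, on the split of reads, without pseudocount. Rows named are those with the most reads and with the highest and lowest log2 ratio among rows with at least 100 counts, and any row whose share moved by at least 5 percentage points. Of the further genes, the 3 highest and the 3 lowest with at least 100 reads and the neighbours of members are named. No test was run, since a condition has 1 library. Windows of the further genes were set by hand on hg19 and kept where at least 80% of the internal exons of a GENCODE transcript had a row of the same length in order. Coordinates of the 2 builds were not compared. HPX did not pass, nor did the endothelial marker PECAM1. The computation of ratios was tested on simulated data. Python 3.11.15, numpy 2.4.6, scipy 1.17.1, pandas 2.3.3, and edgeR 4.0.16 in R 4.3.3 for TMM factors were used.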

Additional observations from a re-analysis of the deposited data

How the results depend on the processing

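ALB, SERPINA1 and FGB were above and TTR, TF and AHSG below their control values under all 9 alternatives. The log2 ratio lay between 0.22 and 0.29 for ALB, 0.20 and 0.30 for SERPINA1, 0.07 and 0.16 for FGB, -0.50 and -0.41 for TTR, -0.44 and -0.36 for TF, and -0.14 and -0.04 for AHSG. FGA and FGG changed sign in 2 alternatives each. With upper quartile scaling, which moves every ratio by 0.07, 5 of the 8 genes were higher and 3 lower, against 3 and 5 by summed counts, and the number of rows at least 1.5-fold higher was 1 instead of 0. The number at least 1.5-fold lower was 2 with a pseudocount of 0.1 and 0 with TMM, median of ratios or upper quartile scaling, instead of 1. With the median over rows with at least 100 counts, which 4 of the 24 further genes lack, 11 were lower, 5 were at least 1.5-fold lower and 1 at least 1.5-fold higher, against 17, 8 and 2. The percent of all rows at least 2-fold higher was 2.05% with no minimum and 6.22% with at least 1000 counts, and 11.5% were at least 1.5-fold higher. Lower by 2-fold were 2.08%, 6.19% (at least 100 counts) and 9.44% (at least 1000 counts), and 13.9% were 1.5-fold lower. No row's share moved by 5 percentage points against the gene or against the nearest rows. The median RPKM per gene was added after the data were seen. No paired analysis was possible because each condition has 1 library, and none could be left out. Low counts limit TTR among the 8 genes, the first rows of TTR and SERPINA1, and HRG, PLG and AFM among the further genes. Variation between cultures was not measured.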
